A study of Homo sapiens with 8 samples.

Results

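Zinc finger genes were taken from the authors' deposited table of translational efficiency (TE, ribosome footprints over mRNA) by their symbols, as every row that starts with ZNF and a digit, ZBTB, ZFP, ZKSCAN, ZSCAN or KLF and a digit. This gave 36 of 4616 genes: 23 ZNF, 5 ZBTB, 4 ZFP, 1 ZKSCAN and 3 KLF genes. The measurements came from WM902B, a cell line from a primary human melanoma that carries BRAFV600E, at passage 18. The cells had been infected with shTINCR, a hairpin against the long non-coding RNA TINCR, or with shSCR, a scrambled hairpin, and both were treated with cycloheximide at 100 µg/ml for 5 min before harvest. Footprints and RNA (labelled as polyA RNA, though titled as total RNA) were each sequenced in 2 biological replicates per hairpin, 8 libraries in 4 groups. A single hairpin against TINCR is named in the labels. Its effect on TINCR was not checked here, since the table has 0 rows for that RNA.

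A zinc finger is a short protein fold held together by a zinc ion. In the C2H2 type, the commonest in human proteins, strings of fingers read DNA base by base, and many such proteins carry a further domain that sets their effect. The KRAB domain recruits the corepressor TRIM28 and silences chromatin, much of it around transposable elements. The BTB domain of the ZBTB proteins pairs subunits and binds corepressors such as NCOR, SCAN domains pair related factors, and KLF proteins bind GC-rich and CACCC promoter elements with fingers at the end of the chain. Other zinc fingers bind RNA or proteins, and their genes share the ZNF or ZFP symbol without being transcription factors.

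The table gave 1 log2 TE per condition, a log2 change and a p-value for each gene, with no value per replicate. The depth of the libraries is unknown. Over all 4616 genes the median log2 TE was 0.0019 in shTINCR and 0.0078 in shSCR cells, so each level is relative to the typical gene. Of the lineage markers of melanocytes, 7 of 9 had a row in the table (SOX10, MLANA, DCT, TYR, PMEL, MITF and S100B), against 0 of 6 for keratinocytes and 0 of 3 for endothelial cells. The fibroblast list had 1 of 6 (COL1A2) and the immune list 1 of 3 (CD68). A row in the table says that a gene was measured and not how much of it was present.

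Few zinc finger genes had a TE value at all. Among RefSeq protein-coding genes (GRCh38.p14), 629 have a symbol that fits the rule, and 36 of them (5.72%) had a row, against 4568 of 19427 other protein-coding genes (23.5%). The share differed between the families: 3 of 18 KLF, 4 of 24 ZFP and 5 of 42 ZBTB genes had a row, against 23 of 517 ZNF genes and 1 of 28 ZKSCAN and ZSCAN genes. Chromosome 19 carries the large clusters of KRAB zinc finger genes. There 1 of 268 genes that fit the rule had a row (ZNF460, 0.373%), against 35 of 361 on all other chromosomes (9.70%), while 276 of 1183 other protein-coding genes of chromosome 19 had one (23.3%). The filter behind the table is not known here, and whether low expression or reads shared between similar fingers left these genes without a value was not tested. The members described here are therefore those with a row, spread over 18 chromosomes, and do not stand for the family.

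**Figure D1:**
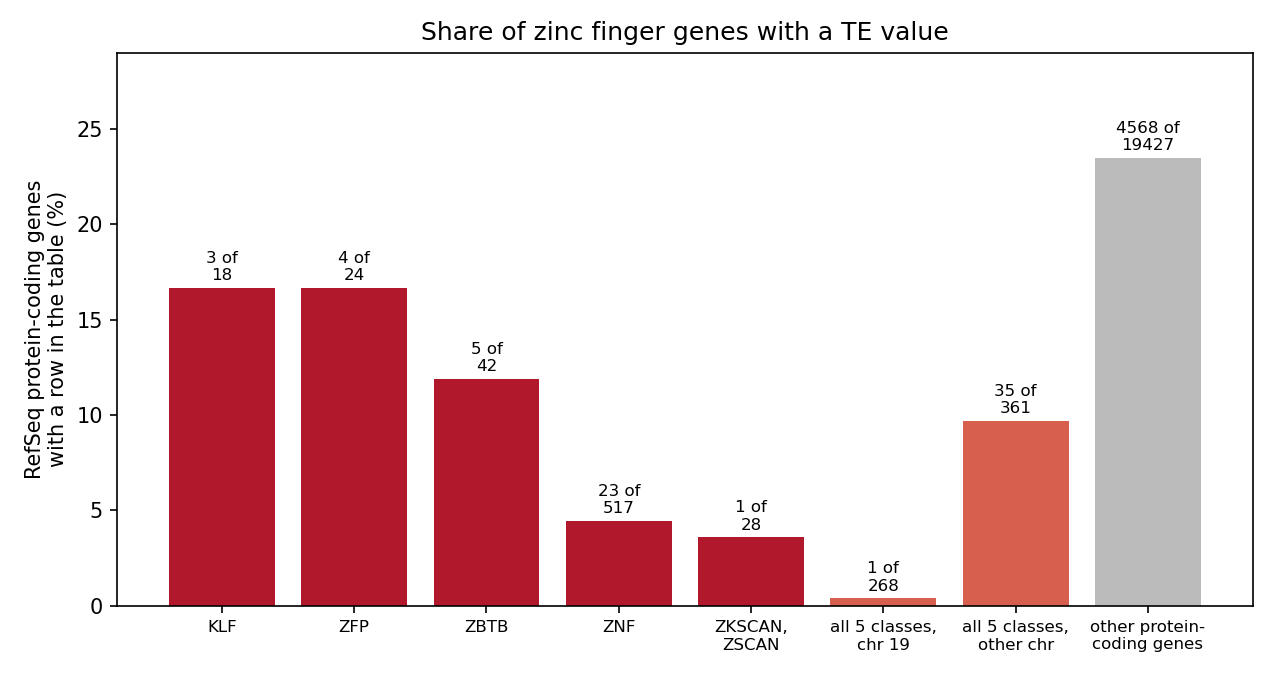
Share of RefSeq protein-coding genes that had a row in the authors' table (vertical axis, percent), for each symbol class, for all 5 classes on chromosome 19 and on other chromosomes, and for the other protein-coding genes. Numbers above the bars are genes with a row out of all genes; the bar for chromosome 19 stands at 0.373% and that of other protein-coding genes at 23.5%.

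The label of transcription factors held for part of the 36 genes. From general knowledge, 12 members are known mainly for roles other than site-specific DNA binding: ZNF326, ZNF638, ZNF106, ZFP36L1 and ZFP36L2 bind RNA or RNA-protein particles, ZNF598, ZNF622 and ZNF593 act on ribosomes, and ZNF207, ZNF451, ZFP91 and ZFPL1 act in mitosis, SUMO and ubiquitin transfer and the Golgi. The placing of ZNF638 is not clear-cut, since it also silences unintegrated retroviral DNA. A further 18 are DNA-binding or chromatin proteins, and for 6 no role is given here. These role groups were formed after the values had been seen, so they are described and not tested. No protein sequences were used, so neither the number of fingers nor the KRAB domain was checked.

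The zinc finger mRNAs gave fewer footprints for their abundance than the typical gene, in both conditions. The median log2 TE of the 36 members was -0.69 in shTINCR cells and -0.60 in shSCR cells in the authors' deposited table, or 0.620 in shTINCR and 0.658 in shSCR cells on the linear scale. A log2 TE below 0 was found for 26 of 36 members in shTINCR cells (72.2%, against 49.8% of all genes) and for 24 in shSCR cells (66.7%, against 49.6%). The 10% of all genes with the lowest TE included 11 members in shTINCR cells (30.6%) and 13 in shSCR cells (36.1%). The 10% with the highest TE included 1 member in each condition. No test was made of this difference. The region in which the authors counted reads is not known here, so genes whose untranslated regions differ in length may not be strictly comparable in level. The members spanned a wide range, with an SD between members of 1.01 in shTINCR and 1.03 in shSCR cells, against 0.921 in shTINCR and 0.899 in shSCR cells between all genes. From the lowest to the highest member TE differed 18.8-fold in shTINCR and 15.0-fold in shSCR cells.

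The level differed between the role groups. Of the 12 members known mainly for roles other than site-specific DNA binding, 8 had a log2 TE above 0 in shTINCR cells (median 0.33). In shSCR cells 8 did (median 0.49). Of the other 24 members, 2 were above 0 in shTINCR cells (KLF10 and ZNF706) and 4 in shSCR cells (these and ZBTB11 and ZNF318). Their median was -0.80 in shTINCR and -0.67 in shSCR cells. In the lowest 10% of all genes were 9 of these 24 in shTINCR (37.5%) and 10 in shSCR cells (41.7%). A second set of C2H2 factors with other names, drawn up with earlier results of these data known, lay at a similar level. Its 14 measured genes, of 56 listed, included 0 past the threshold of a deposited adjusted p below 0.05 (16.4% of all genes) and 0 with an unadjusted p below 0.05 (29.5% of all genes), and had a median log2 TE of -0.62 in shTINCR and -0.67 in shSCR cells in the authors' deposited table. Among them SP3, which binds GC boxes like the KLF proteins, had -1.61 in shTINCR and -1.68 in shSCR cells, and the insulator protein CTCF had -0.46 in shTINCR and -0.22 in shSCR cells.

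**Figure D2:**
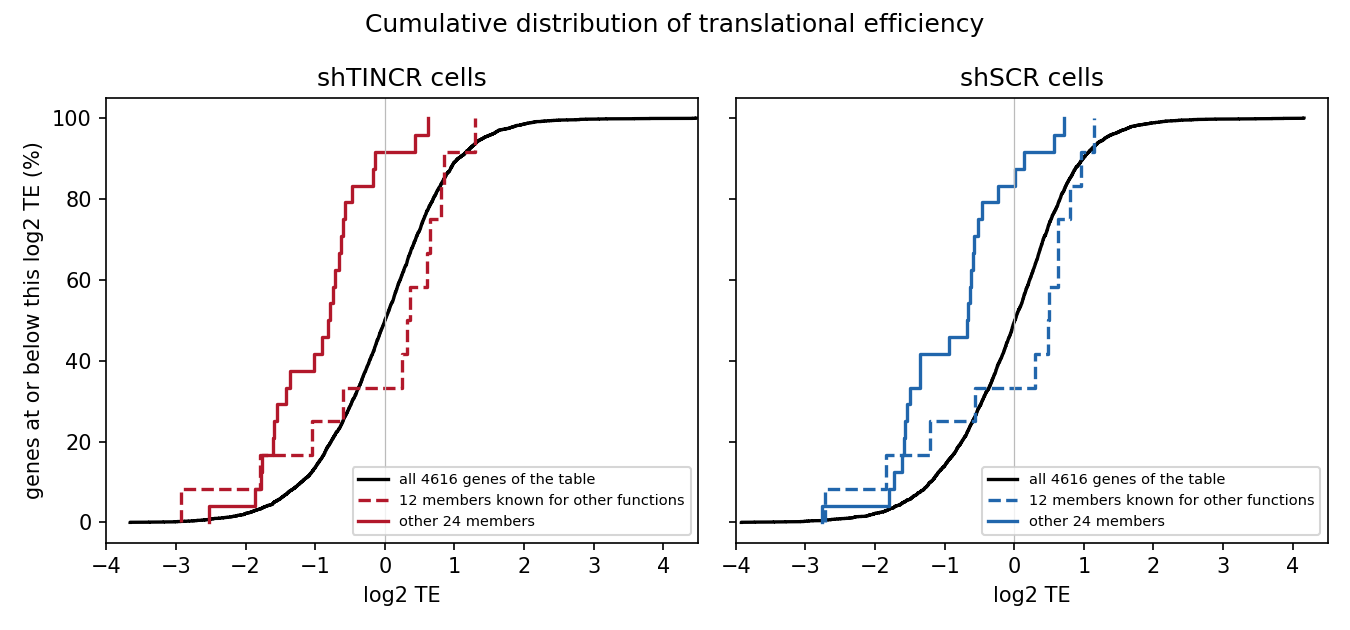
Cumulative share of genes (vertical axis, percent) at or below each log2 TE (horizontal axis) in shTINCR cells (left) and shSCR cells (right). The curve of the 24 members that are DNA-binding or without a given role (solid, coloured) lies left of that of all 4616 genes (black). The curve of the 12 members known for other roles (dashed) crosses the black curve. It lies left of it at the lowest and highest levels of these members and right of it between them. Its medians are 0.33 in shTINCR and 0.49 in shSCR cells.

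The order of the members was largely kept between the conditions. Across the 36 genes, whose values share the same libraries, the levels in shTINCR and shSCR cells had a Pearson r of 0.978 and a Spearman rho of 0.956, and over all genes the values were 0.963 and 0.955. All but 2 members stayed on the same side of 0, the exceptions being ZBTB11 at -0.16 in shTINCR and 0.0045 in shSCR cells and ZNF318 at -0.14 in shTINCR and 0.14 in shSCR cells, neither of which changed past the threshold. At the bottom in shSCR cells stood KLF9, ZNF106, ZNF451, ZKSCAN1 and ZBTB38, between -2.76 and -1.72. At the top stood ZNF593, ZFP36L1, ZNF326, ZNF706 and ZNF207, between 1.15 and 0.63. Without values per replicate it cannot be said which neighbours in this order differ beyond their spread.

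**Figure D3:**
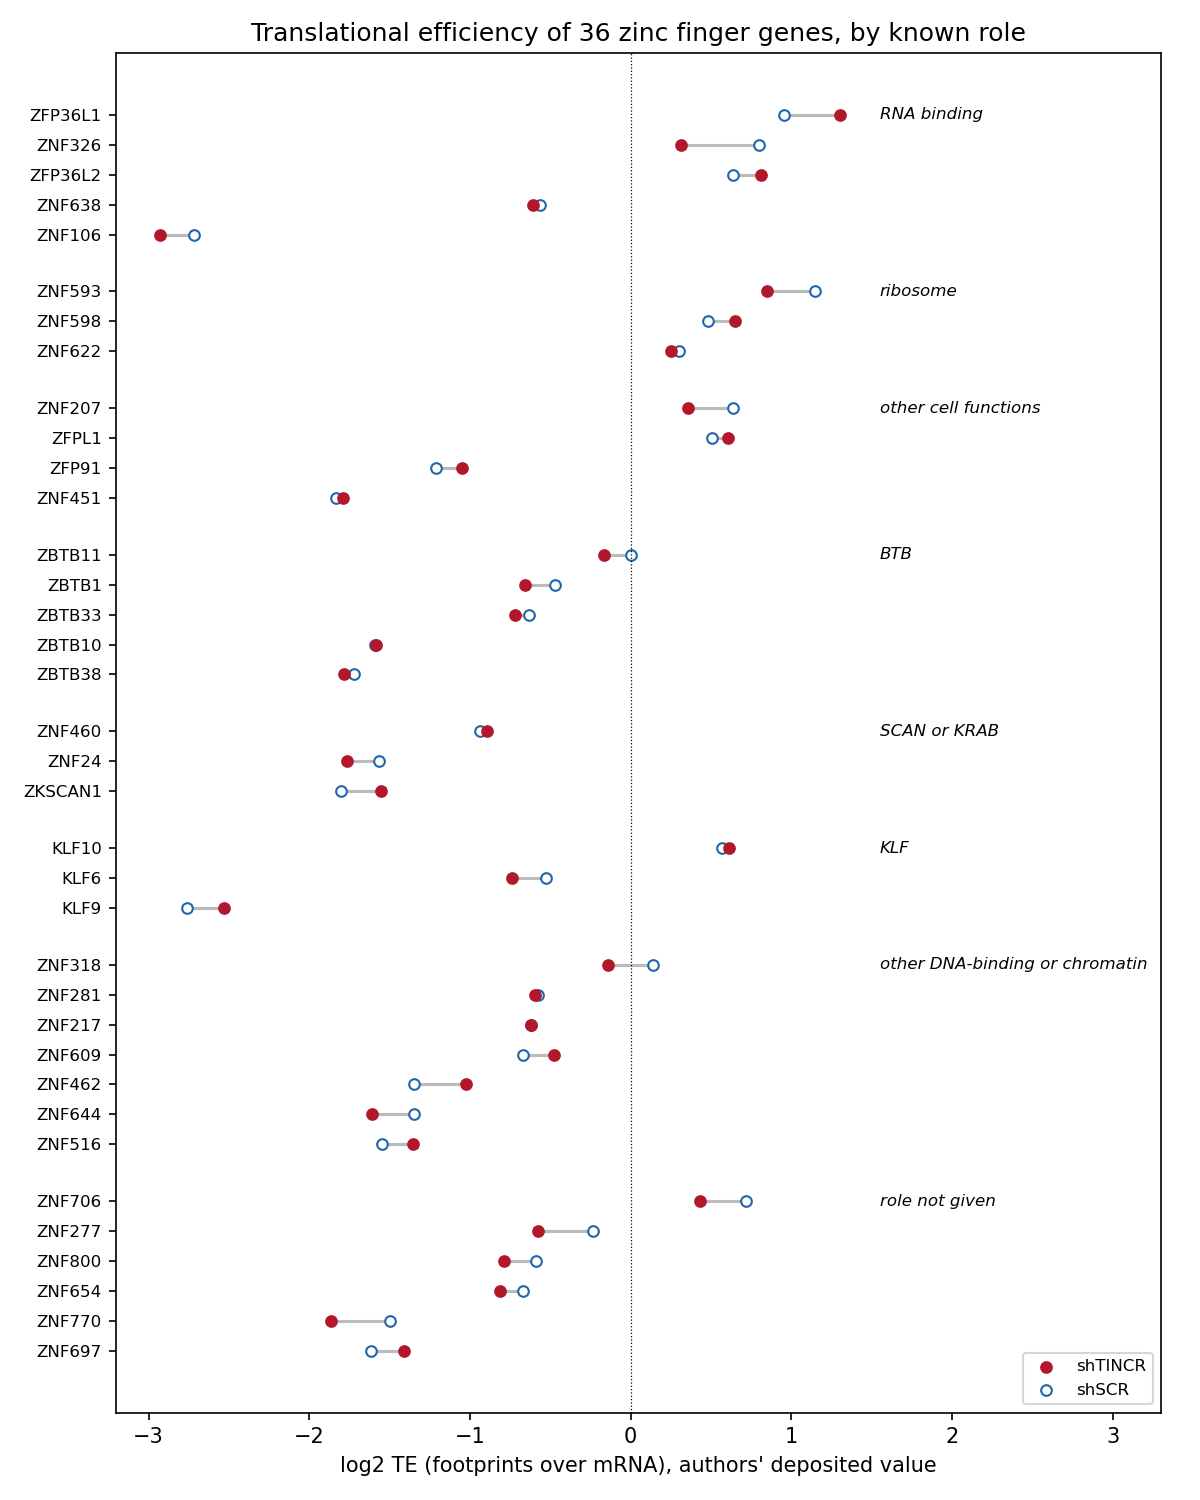
Log2 TE (horizontal axis) of each of the 36 members in shTINCR cells (filled) and shSCR cells (open), grouped by known role, each value being the authors' single value per condition. The line between the points is the change; the points of ZNF326, at 0.31 in shTINCR and 0.80 in shSCR cells, lie farthest apart.

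The comparison of the hairpins shows how far TE of these mRNAs moved when TINCR was targeted. The threshold, an adjusted p below 0.05, was passed by 1 of 36 members (2.78%), against 16.4% of all 4616 genes. That member, ZNF326, fell, and 0 members rose, where the background was 8.17% lower and 8.23% higher. By the unadjusted p below 0.05, 2 members were higher and 5 lower (19.4% in all, against 29.5% of all genes). The median log2 change was -0.04 over the members and 0.02 over all genes, with 21 members below 0 and 15 above. No member reached a log2 change of 0.5 in size (0 of 36, against 4.46% of all genes), and the SD of the change was 0.216 between members and 0.249 between all genes. This was not tested as a difference between members and other genes.

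The small count moved with the version of the authors' estimate and with the threshold. Version 1, with p-values adjusted over all genes, gave 3 lower members, ZNF326, ZNF207 and ZNF770, and 0 higher ones (background 8.71% lower, 9.23% higher and 17.9% in all). Version 2 gave 2 lower members, ZNF326 and ZNF207, and 1 higher one, ZFP36L1 (background 9.23% lower, 11% higher and 20.3% in all). At an adjusted p below 0.01 the final estimate called 0 members (background 7.82%). Below 0.1 it called 4, all lower: ZNF326, ZNF207, ZNF106 and ZNF706 (background 22%). ZNF326 was lower in every version.

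The precision of each change is known only through its final p-value, in every row the larger of both versions. Standard errors and intervals implied by it therefore lean wide. Taking that p as the p of a normal statistic, the median implied standard error was 0.148 for the members and 0.129 for all genes. At these values a log2 change of 0.39 would be needed for a call at the members' median, against 0.34 at the median of all genes. The implied 95% interval lay within a log2 change of 0.5 in either direction for 20 members and reached beyond it for 16. For these 16 a change of that size is not bounded by the table.

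**Figure D4:**
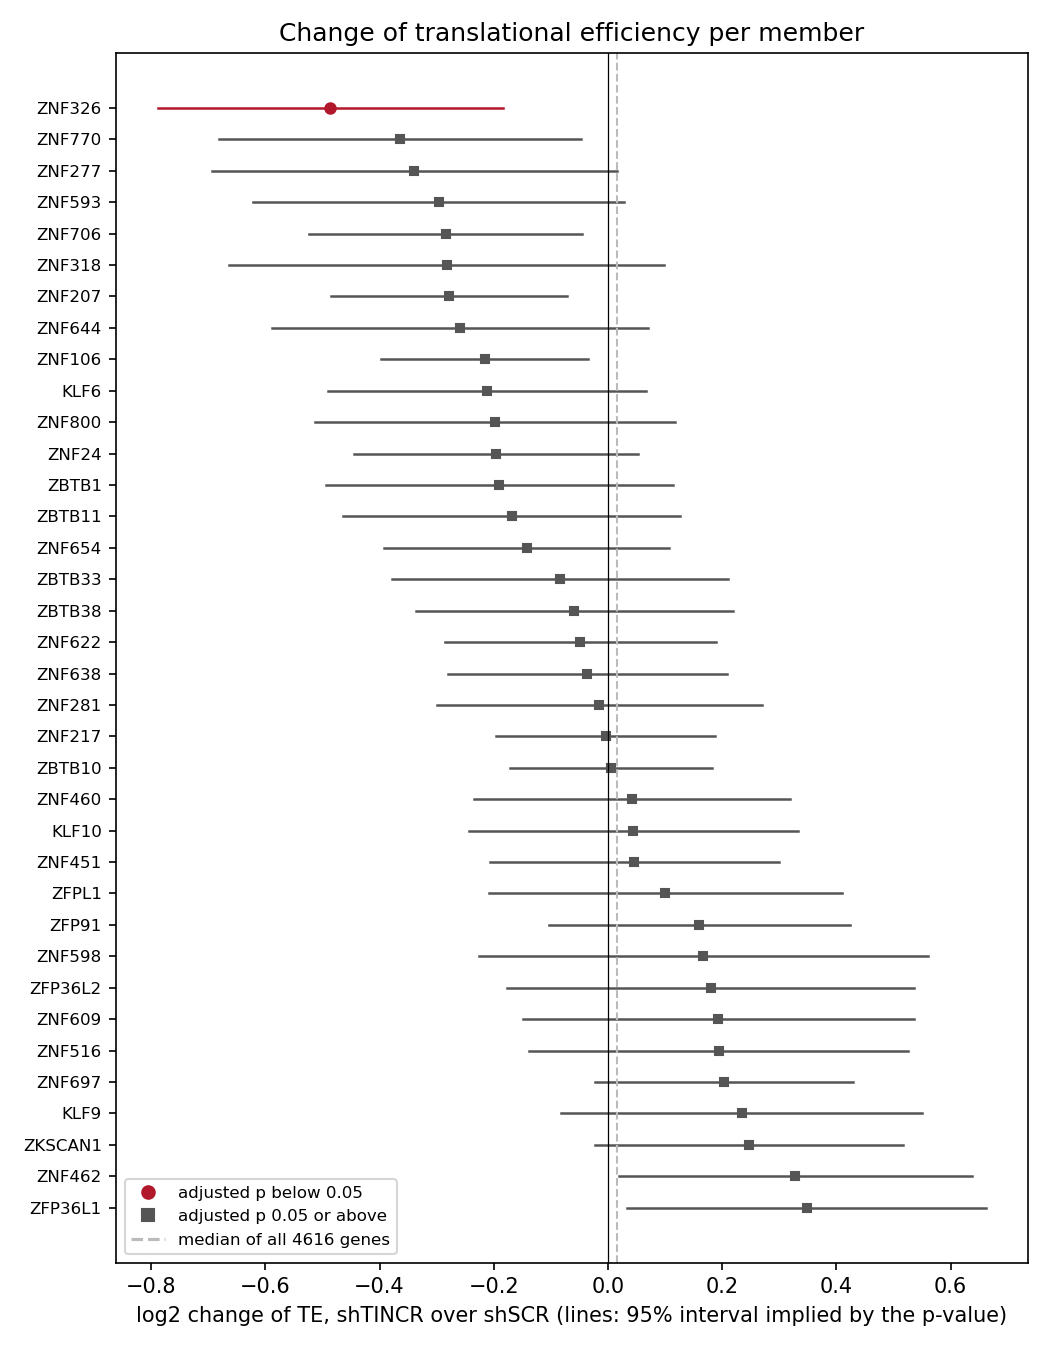
Log2 change of TE, shTINCR over shSCR (horizontal axis), of each member, ordered from lowest to highest, with the 95% interval implied by the deposited p-value as a line. ZNF326, at -0.49, is the 1 member past the threshold (circle); the dashed line is the median of all genes, 0.02.

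ZNF326 is a subunit, with CCAR2, of the DBIRD complex, which binds RNA polymerase II and nuclear mRNA particles and affects elongation and splicing at AT-rich exons. Its log2 TE was 0.31 in shTINCR cells, against 0.80 in shSCR cells, in the authors' deposited table. It fell to 0.714-fold (log2 change -0.49, adjusted p = 0.0166 per the authors' deposited table), with an implied 95% interval of -0.79 to -0.18. The mRNA was thus among the better translated ones in shSCR cells, above 85.2% of all genes, and stood above 64.0% of them in shTINCR cells. Whether footprints fell or mRNA increased was not measured separately in this table. In RefSeq no other protein-coding gene overlaps ZNF326 and it has 0 named pseudogenes. Of all 36 members, 0 overlap a snoRNA gene, 8 overlap another protein-coding gene and 2 have a named pseudogene. The 8 are ZNF106, ZNF593, ZNF318, ZNF654, ZBTB1, ZBTB11, ZBTB33 and ZFPL1. Whether the overlap affects their values was not tested.

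The other RNA-binding members did not pass the threshold. With ZNF326, 1 of 5 RNA-binding members passed it (20%, against 16.4% of all genes). An unadjusted p below 0.05 was found for 3 of the 5 (60%, against 29.5% of all genes), 1 higher and 2 lower. With 5 genes this was not tested. ZFP36L1 and ZFP36L2 belong to the tristetraprolin family, whose CCCH fingers bind AU-rich elements and lead mRNAs to decay. ZFP36L1 had a log2 TE of 1.30 in shTINCR and 0.95 in shSCR cells in the authors' deposited table, the highest member level in shTINCR cells (log2 change 0.35, adjusted p = 0.122). Its paralog ZFP36L2 had 0.81 in shTINCR and 0.63 in shSCR cells (log2 change 0.18, adjusted p = 0.537 per the authors' deposited table). Both were well translated, and both changes were above 0, as were those of 2425 of all 4616 genes. ZNF106, an RNA-binding protein whose loss causes motor neuron degeneration in mice, lay near the bottom of the table, with -2.93 in shTINCR and -2.72 in shSCR cells (log2 change -0.22, adjusted p = 0.0918 per the authors' deposited table). ZNF638, a nuclear protein that binds nucleic acids and silences unintegrated retroviral DNA, had -0.61 in shTINCR and -0.57 in shSCR cells (adjusted p = 0.876 per the authors' deposited table).

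Members that act on ribosomes were all translated above the typical gene. ZNF593, the counterpart of a yeast shuttling protein of the large ribosomal subunit, had a log2 TE of 0.85 in shTINCR and 1.15 in shSCR cells in the authors' deposited table (log2 change -0.30, adjusted p = 0.215). ZNF598 is the ubiquitin ligase that recognises collided ribosomes. It had 0.65 in shTINCR and 0.48 in shSCR cells, with a log2 change of 0.17 (adjusted p = 0.614 per the authors' deposited table) and the widest implied interval of the members, -0.23 to 0.56. ZNF622, which in yeast matures the large subunit in the cytoplasm, had 0.25 in shTINCR and 0.30 in shSCR cells (adjusted p = 0.829 per the authors' deposited table) and has 1 named pseudogene. None of the 3 passed the threshold (16.4% of all genes did), and 0 had an unadjusted p below 0.05 (29.5% of all genes). With so few genes per group, such counts set no role group apart from all genes.

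Among other factors that respond to stalled or collided ribosomes some passed. Of 16 listed genes 14 were measured, 2 rose and 2 fell, with a median log2 change of -0.12. This is 28.6% of the 14, against 16.4% of all genes (8.23% higher and 8.17% lower), and the difference was not tested. NEMF, which marks stalled nascent chains on the large subunit, fell, with a log2 TE of 0.23 in shTINCR and 0.70 in shSCR cells in the authors' deposited table (log2 change -0.47, adjusted p = 0.0037). The authors' deposited table has RACK1, the ribosomal scaffold that ZNF598 depends on, with a log2 change of -0.41, a fall (adjusted p = 1.35e-05), and as it has 3 named pseudogenes its value is uncertain. EDF1, a sensor of collisions, and the ubiquitin ligase MKRN1 rose, and the authors' deposited table gives them log2 changes of 0.33 and 0.38 (adjusted p = 0.0317 and 0.0443).

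ZNF207 (BuGZ), a microtubule-binding protein that carries the checkpoint protein BUB3 to kinetochores, lay at the edge of the threshold. Its log2 TE was 0.36 in shTINCR and 0.63 in shSCR cells in the authors' deposited table (log2 change -0.28, adjusted p = 0.0501). Of the authors' separate versions of the estimate, both put ZNF207 past the threshold, with p-values adjusted here from the authors' deposited table (adjusted p = 0.0474 in version 1 and 0.0318 in version 2). The SUMO ligase ZNF451 stayed low, at -1.79 in shTINCR and -1.84 in shSCR cells (adjusted p = 0.853 per the authors' deposited table). ZFP91, a ubiquitin ligase of the non-canonical NF-κB pathway with 1 named pseudogene, had -1.05 in shTINCR and -1.21 in shSCR cells (adjusted p = 0.446 per the authors' deposited table). The Golgi membrane protein ZFPL1 had 0.60 in shTINCR and 0.50 in shSCR cells (adjusted p = 0.713 per the authors' deposited table). Of these 4 members 0 passed the threshold in the final estimate (16.4% of all genes did). Only ZNF207 had an unadjusted p below 0.05 (25%, against 29.5% of all genes).

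Among the 3 KLF genes the levels lay far apart, while no change passed the threshold. KLF10, a gene induced early by TGF-β, had a log2 TE of 0.61 in shTINCR and 0.57 in shSCR cells in the authors' deposited table (log2 change 0.04, adjusted p = 0.874). KLF6, which acts as a tumour suppressor in several tissues, had -0.74 in shTINCR and -0.53 in shSCR cells (log2 change -0.21, adjusted p = 0.323 per the authors' deposited table). KLF9, which glucocorticoid and thyroid hormones induce, had -2.53 in shTINCR and -2.76 in shSCR cells (log2 change 0.23, adjusted p = 0.338 per the authors' deposited table). KLF9 was the lowest member in shSCR cells, above 0.433% of all genes, and next to the lowest, after ZNF106, in shTINCR cells. None of the 3 had an unadjusted p below 0.05 (29.5% of all genes did, and 16.4% passed the threshold).

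The 5 BTB genes lay at or below the typical gene in both conditions. Of them 0 passed the threshold (16.4% of all genes did) and 0 had an unadjusted p below 0.05 (29.5% of all genes). ZBTB11, needed for neutrophil development in zebrafish, was the highest of them (log2 change -0.17, adjusted p = 0.476 per the authors' deposited table). ZBTB1, required for lymphoid development in mice, had a log2 TE of -0.66 in shTINCR and -0.47 in shSCR cells in the authors' deposited table (log2 change -0.19, adjusted p = 0.43). ZBTB33 (Kaiso) and ZBTB38, which bind methylated DNA, had -0.72 and -1.78 in shTINCR cells, against -0.63 and -1.72 in shSCR cells, in the authors' deposited table. Their adjusted p-values were 0.752 and 0.823 in the authors' deposited table. ZBTB10 was at -1.59 in both conditions of the authors' deposited table (log2 change 0.0052, implied 95% interval -0.17 to 0.18), one of the narrowest intervals of the members.

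Of the BTB and KLF cofactors, 13 of 18 listed genes were measured and 0 passed the threshold, against 16.4% of all genes, with 2 at an unadjusted p below 0.05 (15.4%, against 29.5% of all genes). The smallest p belonged to HDAC3, the deacetylase of the NCOR complexes, which the authors' deposited table gives a log2 change of 0.28 (adjusted p = 0.082).

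SCAN and KRAB factors were all poorly translated in both conditions. ZKSCAN1, which has both domains and whose gene gives an abundant circular RNA, had a log2 TE of -1.55 in shTINCR and -1.80 in shSCR cells in the authors' deposited table (log2 change 0.25, adjusted p = 0.213). ZNF24, a SCAN protein, had -1.76 in shTINCR and -1.57 in shSCR cells (log2 change -0.20, adjusted p = 0.299 per the authors' deposited table). ZNF460, a KRAB protein and the 1 member on chromosome 19, had -0.90 in shTINCR and -0.94 in shSCR cells (adjusted p = 0.872 per the authors' deposited table). The changes did not share a direction, and 0 of the 3 had an unadjusted p below 0.05 (29.5% of all genes did).

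The machinery that KRAB proteins recruit was taken as a list drawn up with earlier results of these data known. Its share with a row is therefore not comparable with that of the zinc finger genes. Of 30 listed genes 25 were measured, 3 fell and 1 rose, and the median log2 change was -0.08. The share past the threshold was 16.0%, near the 16.4% of all genes, so the count does not set this list apart. The corepressor TRIM28 itself, named after its value was seen, had a log2 TE of 0.76 in shTINCR and 0.63 in shSCR cells in the authors' deposited table (adjusted p = 0.419). Those that fell were CBX3, the heterochromatin protein HP1γ, the deacetylase HDAC2 and the histone chaperone RBBP4. The authors' deposited table has log2 changes of -0.39 for CBX3 (adjusted p = 0.000869), -0.41 for HDAC2 (adjusted p = 0.00147) and -0.31 for RBBP4 (adjusted p = 0.0356). The gene that rose, GATAD2A, encodes a subunit of the NuRD complex and has a log2 change of 0.33 there (adjusted p = 0.0482, per the authors' deposited table). CBX3 and RBBP4 have 10 and 7 named pseudogenes, so reads can be shared and their values are uncertain.

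Of the 7 other DNA-binding and chromatin members, all but ZNF318 had a log2 TE below 0 in both conditions. None passed the threshold (16.4% of all genes did), and 1, ZNF462, had an unadjusted p below 0.05 (14.3%, against 29.5% of all genes). ZNF462, a vertebrate protein of neural development, had the largest change among them, with a log2 TE of -1.02 in shTINCR and -1.35 in shSCR cells in the authors' deposited table (log2 change 0.33, adjusted p = 0.139). ZNF644, a partner of the histone methyltransferases G9a and GLP, had -1.61 in shTINCR and -1.35 in shSCR cells (log2 change -0.26, adjusted p = 0.301 per the authors' deposited table). These 2 mRNAs had the same TE in shSCR cells and changes of opposite sign. ZNF516, which in mice drives the thermogenic programme of brown fat, had -1.36 in shTINCR and -1.55 in shSCR cells (adjusted p = 0.467 per the authors' deposited table). ZNF609, which in mouse neural progenitors links cohesin loading and the Integrator complex, had -0.48 in shTINCR and -0.67 in shSCR cells (adjusted p = 0.482 per the authors' deposited table).

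ZNF217, an oncogene amplified in breast cancer, and ZNF281, a regulator of stem cell genes, had nearly the same TE under both hairpins. ZNF217 had a log2 TE of -0.62 in both conditions of the authors' deposited table (log2 change -0.0044, implied 95% interval -0.20 to 0.19). ZNF281 had -0.60 in shTINCR and -0.58 in shSCR cells (adjusted p = 0.955 per the authors' deposited table). ZNF318, known in mouse B cells for the splicing that gives IgD, had a log2 change of -0.28 with a wide implied interval, -0.66 to 0.10 (adjusted p = 0.338 per the authors' deposited table).

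Of the 6 members with no role given here, 5 had a change below 0 (83.3%, against 47.0% of all genes). The threshold was passed by 0 of them, against 16.4% of all genes. An unadjusted p below 0.05 was found for ZNF770 and ZNF706, 33.3% of the 6, near the 29.5% of all genes. ZNF770 had a log2 TE of -1.87 in shTINCR and -1.50 in shSCR cells in the authors' deposited table (log2 change -0.36, adjusted p = 0.107). ZNF706 was the 1 well translated member of this group, with 0.43 in shTINCR and 0.72 in shSCR cells (log2 change -0.28, adjusted p = 0.0929 per the authors' deposited table). For ZNF277 the values were -0.58 in shTINCR and -0.23 in shSCR cells (log2 change -0.34, adjusted p = 0.193 per the authors' deposited table). ZNF654 and ZNF800 had log2 changes of -0.14 and -0.20, and ZNF697 one of 0.20 (adjusted p = 0.475, 0.429 and 0.222 in the authors' deposited table).

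**Figure D5:**
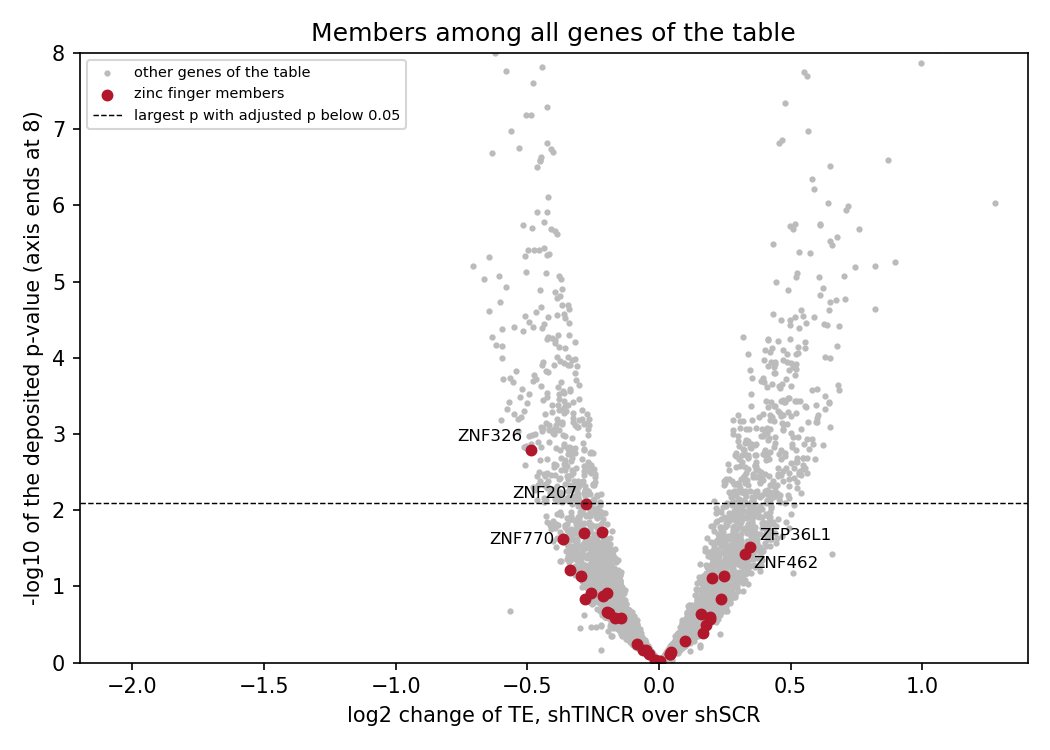
Log2 change of TE, shTINCR over shSCR (horizontal axis), against -log10 of the deposited p-value (vertical axis, which ends at 8 and leaves out 44 genes with smaller p-values) for the members (red) and the other genes (grey). The dashed line is the largest p-value, 0.00817, of any gene past the threshold in the authors' deposited table. ZNF326 lies above it and ZNF207 just under it.

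The first bases of an mRNA bear on its translation. mRNAs of ribosomal proteins begin with a terminal oligopyrimidine (TOP) stretch, a C followed by further C or T, through which mTORC1 and LARP1 control them. RefSeq promoters (GRCh38.p14) were at hand for 30 of the 36 members and were read at the annotated start of the transcript for a C followed by at least 4 C or T, on the transcribed strand. Shown are ZNF326, the member past the threshold, ZNF207, ZNF770 and ZFP36L1, which passed it in another version of the estimate, and ZNF277, which with ZFP36L1 holds the pattern. RPL13A, a ribosomal protein with a classical TOP start, is given for comparison. Each line runs from 30 bases before the annotated start to 20 bases after it, and the capitals mark the first 10 transcribed bases.
ZNF326 (chr1:89995080-89995129, plus strand): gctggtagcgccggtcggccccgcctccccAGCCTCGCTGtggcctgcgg
ZNF207 (chr17:32350127-32350176, plus strand): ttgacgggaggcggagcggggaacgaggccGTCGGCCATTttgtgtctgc
ZNF770 (chr15:34988268-34988317, minus strand): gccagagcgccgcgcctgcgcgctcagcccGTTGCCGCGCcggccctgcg
ZNF277 (chr7:112206665-112206714, plus strand): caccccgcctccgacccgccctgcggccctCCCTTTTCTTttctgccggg
ZFP36L1, start 1 (chr14:68796224-68796273, minus strand): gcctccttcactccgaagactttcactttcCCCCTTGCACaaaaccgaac
ZFP36L1, start 2 (chr14:68793397-68793446, minus strand): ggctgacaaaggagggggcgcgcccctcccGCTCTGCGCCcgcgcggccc
RPL13A (chr19:49487578-49487627, plus strand): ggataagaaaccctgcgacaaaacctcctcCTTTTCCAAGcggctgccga

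The pattern stood at an annotated start of 2 of the 30 members, ZNF277 and ZFP36L1 (6.67%). Counted the same way, it stood in 8.66% of 3857 genes of the table with a promoter and 45 of 63 ribosomal protein genes (71.4%). Counted by start, 2 of 44 member starts held it (4.55%), near the 4.07% of all 35116 RefSeq starts. ZNF326, the member that fell, does not hold it at its annotated start. Among the 3857 genes with a promoter, 22.8% of the 334 with the pattern fell, against 6.84% of the 3523 without it. The 334 include the 45 ribosomal protein genes, and of all 63 ribosomal protein genes 32 fell (50.8%). The share without ribosomal protein genes was not computed. The members that hold it pointed in opposite directions, ZNF277 with a log2 change of -0.34 and ZFP36L1 with 0.35 in the authors' deposited table, and neither passed the threshold. ZFP36L1 has it at 1 of its 2 annotated starts, and which start WM902B cells use was not analysed here.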

How the data were processed

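Footprint and RNA libraries of WM902B cells (8 libraries, 4 groups of 2 replicates) were made by the authors. Per the submitters' processing notes, which give no roles, the aligners TopHat2 2.0.8 and Bowtie2 2.1.0, the counter HTSeq 0.5.3p9, DESeq 1.10.1, CASAVA 1.9, SAMtools 0.1.18 and build hg19 were used. The deposited log2 values are TE per condition and its change, in 2 versions and a final choice, per the file headers. Its p-values are, per the file headers, those of both versions, the final one and an adjusted one. Recomputing the adjusted p by Benjamini-Hochberg over the 4616 rows gave the deposited values to within 1.95e-15, and the final p was the larger of both versions in every row. The tool and the low-value filter behind these columns are not known here. With 0 columns of library values, no test was run, and the authors' p-values are described.

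Members were found by symbol, and all 36 symbols are current in RefSeq. The members, lists and role groups were chosen with earlier results of these data known. The text names every member past the threshold, every KLF, the 3 members with the smallest p per symbol class, the 5 highest and lowest by TE in shSCR cells and, per related list, up to 4 genes past the threshold. The remaining members and the genes TRIM28, SP3, CTCF and HDAC3 were named after their values were seen. Implied standard errors are the log2 change over the normal quantile of its p, and intervals are at 95%. The adjustment was tested on simulated data. Scripts ran in Python 3.11.15 with matplotlib 3.10.9, scipy 1.17.1, numpy 2.4.6 and pandas 2.3.3. Fingers and KRAB domains were to be counted in protein sequences, which were not used here.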

Additional observations from a re-analysis of the deposited data

How the results depend on the processing

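The count of members past the threshold was small and moved with the estimate. With version 1 of the authors' estimate 3 members fell (ZNF326, ZNF207 and ZNF770) and 0 rose, against a background of 17.9%. With version 2, 2 fell (ZNF326 and ZNF207) and 1 rose (ZFP36L1), 3 in all, against 20.3%. At an adjusted p below 0.01 the count was 0 (background 7.82%), and below 0.1 it was 4, all lower (ZNF326, ZNF207, ZNF106 and ZNF706, background 22%). Without the 12 members known mainly for other roles, an alternative added after seeing the data, it was 0 of 24 (background 16.4%). In 68 of 72 values of single members under version 1 or 2 the direction and the side of the threshold were as in the final estimate, and the other 4 passed newly: ZNF207 in both versions, ZNF770 in version 1 and ZFP36L1 in version 2. The median log2 change lay between -0.07 and -0.04 under all alternatives run, and the median log2 TE between -0.80 and -0.69 in shTINCR and between -0.67 and -0.60 in shSCR cells. Restricting the members to proteins with C2H2 fingers was not run. No paired analysis was possible because the table has no values of libraries. Leaving out replicates, other normalizations and other filters were not run for the same reason. Depth is unknown, and precision rests on the p-values.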
